A study of Mus musculus with 40 samples.

Results

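The effect of deleting Tsc1 from skeletal muscle was measured in 9-month-old mice that had all been given rapamycin, by comparing 9mTSCmKO+RM with 9mCON+RM. The members of this comparison were taken from the sample titles and were 10 of the 40 libraries of the series, 5 in each group. Each library was polyA RNA from a whole extensor digitorum longus (EDL), a fast hindlimb muscle of the mouse. The 5 mice of 9mTSCmKO+RM carried the label TSCmKO and the 5 mice of 9mCON+RM the label Tsc1fl/fl, both on the strain listed as Tsc1tm1Djk/J. The controls therefore also carried the floxed Tsc1 allele, and per the study's methods they were littermates without Cre recombinase. Cre was restricted to muscle fibers, and the promoter that drives it was not given in the sources used here. Rapamycin was injected intraperitoneally on 3 days before the muscle was taken. The labels give 4 mg per kg, the study's text gives another dose, and the dose is therefore uncertain. Vehicle-injected mice of the same age (9mTSCmKO and 9mCON) and rapamycin-treated mice of 3 months (3mTSCmKO+RM and 3mCON+RM), 5 libraries each, were used only to set the effect beside its counterpart.

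TSC1 and TSC2 form a complex that switches off the small GTPase RHEB and so restrains mTORC1, a kinase complex that promotes protein and ribosome synthesis and restrains autophagy. Muscle fibers without TSC1 have sustained mTORC1 activity. Rapamycin binds FKBP12 and inhibits mTORC1, which acts downstream of TSC1, so the comparison shows which differences between knockout and control muscle were present after 3 days of the inhibitor.

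Depth was similar in both groups. Deposited counts summed to between 12532308 and 21315299 per library in 9mCON+RM and to between 13981064 and 18667327 in 9mTSCmKO+RM. Within a group, Pearson's r between log CPM values of library pairs was 0.97 to 0.986 in 9mCON+RM and 0.96 to 0.99 in 9mTSCmKO+RM. Replicate 1 of each group stood apart in the same way, with the highest summed level of cytosolic ribosomal protein genes of its group, and results that rest on these libraries are also given without them. The labelled tissue was checked against its markers: 10 of 10 muscle fiber markers passed the filter on low counts, and together they took between 118885 and 162805 CPM (counts scaled to library size with TMM factors) of each library.

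Tsc1 itself, on chromosome 2 (28641228 to 28691167, + strand, GRCm38), was lower in each knockout library than in any control. It measured 78.0, 78.8, 72.0, 81.2 and 87.5 CPM in 9mCON+RM and 17.8, 18.8, 25.7, 19.6 and 19.6 CPM in 9mTSCmKO+RM. The log2 fold change was -1.97 ± 0.17 (SE; edgeR's quasi-likelihood test, Benjamini-Hochberg adjusted p = 5.03e-11). Values after ± beside a log2 fold change are standard errors throughout, with 5 libraries in each group. Its counts cover the whole gene and the whole muscle, so that transcripts of cells without Cre are included. Tsc2, which encodes the partner protein, was at 122 to 149 CPM in controls and 142 to 179 CPM in knockouts, a log2 difference of 0.25 ± 0.12 that did not pass (adjusted p = 0.144).

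Of 13543 genes tested, 2795 (20.6%) differed between 9mTSCmKO+RM and 9mCON+RM at an adjusted p under 0.05. There were 1531 higher genes (11.3%) and 1264 lower genes (9.33%), of which 569 and 193 differed at least 2-fold. For 1845 genes (13.6%) the 5 knockout and the 5 control libraries did not overlap.

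Kcnip2, an accessory subunit of voltage-gated potassium channels, was at 0.338, 0.154, 0.0724, 0.172 and 0.203 CPM in controls and at 18.4, 13.9, 12.2, 14.4 and 11.3 CPM in knockouts. This was a log2 fold change of 6.17 ± 0.47 (adjusted p = 1.71e-12), the largest rise among genes of at least 5 CPM in the higher group. Krt18, a keratin normally prominent in simple epithelia, rose from 0.27 to 0.771 CPM in controls to 8.22 to 25.7 CPM in knockouts (log2 5.13 ± 0.38). Mdfi, an inhibitor of myogenic transcription factors, was at 0.145 to 0.566 CPM in controls and 4.88 to 8.34 CPM in knockouts (3.78 ± 0.40). Atp2a2, the slow and cardiac calcium pump of the sarcoplasmic reticulum, measured 28.8, 40.8, 63.2, 30.1 and 34.3 CPM in controls and 356, 505, 546, 499 and 611 CPM in knockouts (3.67 ± 0.36). No library of either group reached the range of the other for any of these genes. Further leading rises were those of the small GTPase Rab15 (3.55 ± 0.32), the Z-disc protein Igfn1 (3.39 ± 0.39), the slow myosin light chain Myl2 (3.32 ± 0.48), the serpin Serpina3c (3.28 ± 0.38) and the cardiac actin Actc1 (3.24 ± 0.53). Of Serpina3c's 31-base words, 16.9% also occur in transcripts of other genes, and 11.4% of those of Krt18, so that a part of their reads could belong to relatives or pseudogenes.

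**Figure D1:**
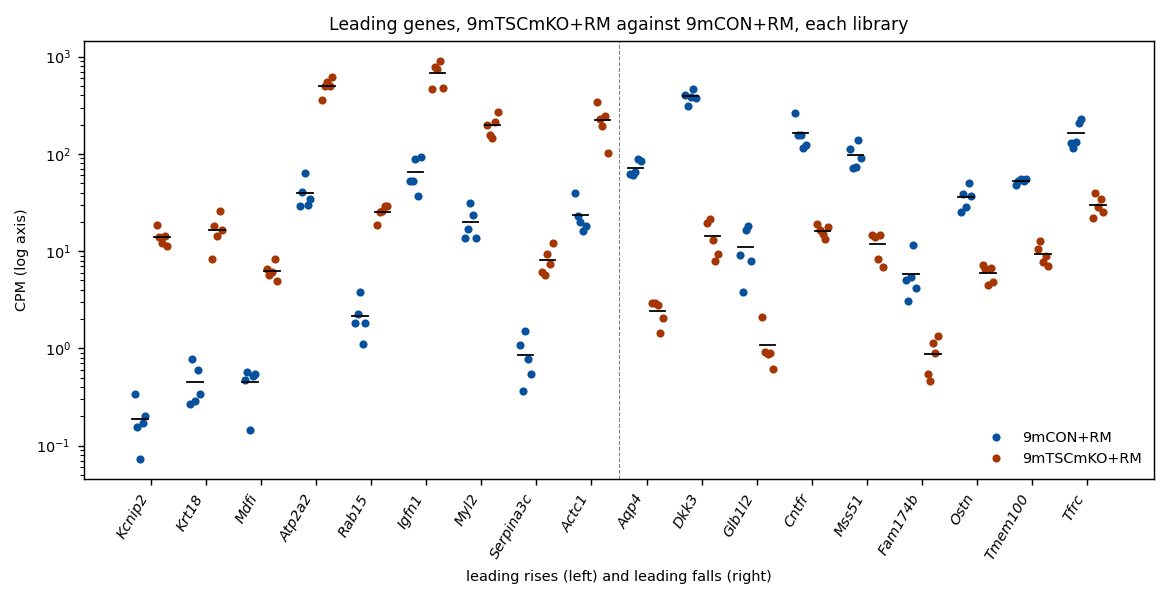
Each point is the CPM (log axis) of 1 library for 9 leading rises and 9 leading falls in 9mTSCmKO+RM (brown) against 9mCON+RM (blue), and black lines are group means over 5 libraries. The groups are separate for each gene shown, from Kcnip2, at most 0.338 CPM in controls and at least 11.3 in knockouts, to Tfrc, at least 114 and at most 39.5 CPM.

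Among the falls, Aqp4, the water channel of fast fiber membranes, was at 62.5, 60.5, 64.5, 87.8 and 84.6 CPM in controls and at 2.90, 2.94, 2.77, 1.45 and 2.07 CPM in knockouts (log2 -4.88 ± 0.27, adjusted p = 1.88e-16). Dkk3, a secreted member of the Dickkopf family, was at 311 to 468 CPM in controls and 7.86 to 21.2 CPM in knockouts (-4.78 ± 0.31), less than under vehicle (-6.46, interaction 1.68, adjusted p = 0.00837). Both genes were lower in every knockout library than in every control library. Cntfr, the receptor subunit for ciliary neurotrophic factor, fell from 115 to 264 CPM to 13.2 to 18.9 CPM (-3.33 ± 0.35), and Ostn, the muscle-secreted peptide osteocrin, from 25.5 to 50.6 CPM to 4.46 to 7.12 CPM (-2.60 ± 0.41). Glb1l2 (-3.38 ± 0.45), Mss51 (-3.05 ± 0.79), Fam174b (-2.69 ± 0.31), Tmem100 (-2.49 ± 0.19) and Tfrc, the transferrin receptor (-2.44 ± 0.25), were the other leading falls described.

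The vehicle-treated pair, which shares no library with the rapamycin pair, gave 5133 changed genes (37.9%), 2580 higher (19.1%) and 2553 lower (18.9%). The joint fit shares 1 estimate of the spread over all groups, while the groups differed in it, with a biological coefficient of variation of 24.6% in 9mCON and 28.1% in 9mTSCmKO against 20.5% in 9mCON+RM and 18.9% in 9mTSCmKO+RM. Fitted on only the groups compared, 2710 genes changed under vehicle and 2223 under rapamycin. Of the genes higher under vehicle, 1046 were also higher under rapamycin (40.5% of the vehicle list and 68.3% of the rapamycin list) and 8 were lower. Of those lower under vehicle, 815 were lower under rapamycin as well (31.9% and 64.5%), and 19 were higher. The vehicle-higher genes had a median log2 fold change of 0.743 under vehicle and 0.341 under rapamycin, and the vehicle-lower genes of -0.647 and -0.275. Their sign was the same under rapamycin in 85.3% and 83.1%. Each such choice favours the contrast it was made on: the genes higher under rapamycin had medians of 0.803 under rapamycin and 0.709 under vehicle, and those lower under rapamycin of -0.561 and -0.493. Across the 13543 genes the effects had a Pearson's r of 0.695, given as a description, since genes are not independent replicates. A further 466 genes were higher and 441 lower under rapamycin without passing the test under vehicle.

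The difference between both effects was tested as an interaction, and 660 genes passed (4.87%), 347 with a positive (2.56%) and 313 with a negative sign (2.31%). The number was 435 with no filter on low counts (22597 genes tested), 929 by DESeq2 and 201 in a fit of only the groups compared. In 501 of the 660 genes (75.9%) the genotype effect was smaller in absolute size under rapamycin than under vehicle. In 354 of the 660 the values under rapamycin and under vehicle differed in sign, whether or not each was called. Genes were sorted into classes by these 3 tests. In 1742 genes the effect was called both with and without rapamycin, with the same sign and no interaction (kept). The reduced and enlarged classes also needed a called interaction, with size taken as the absolute log2 fold change. In 491 genes the effect was called under vehicle and smaller under rapamycin (reduced), and in 133 it was called under rapamycin and larger there (enlarged). In 27 genes it was called with opposite signs. Of the genes called under vehicle and not under rapamycin, the interaction was called in 183 of 1526 higher and in 202 of 1719 lower genes, and for the others a change of effect was not shown.

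**Figure D2:**
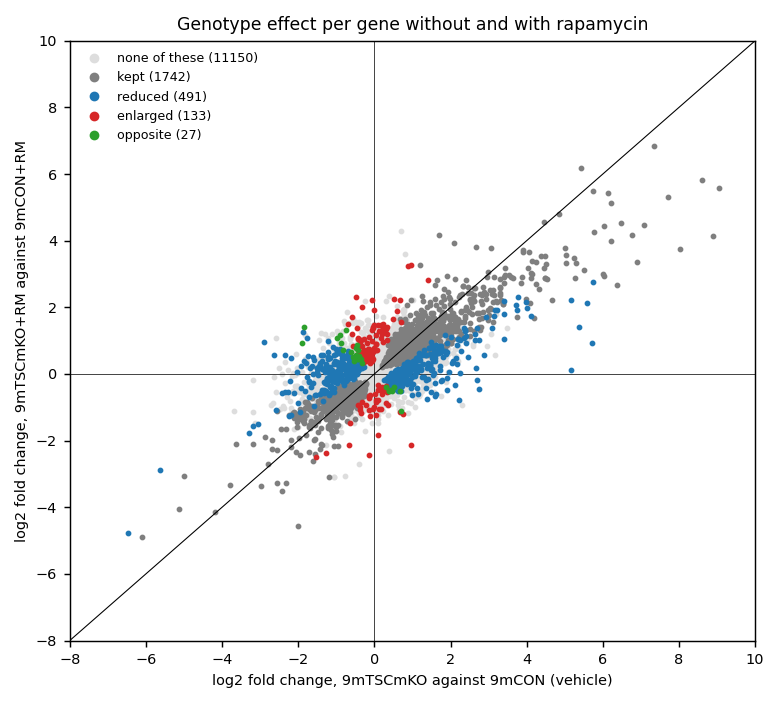
Each point is 1 of 13543 genes, with the log2 fold change of 9mTSCmKO against 9mCON on the x axis and that of 9mTSCmKO+RM against 9mCON+RM on the y axis, coloured by class (kept 1742, reduced 491, enlarged 133, opposite 27). The line marks equal effects (Pearson's r 0.695), and medians were 0.743 under vehicle and 0.341 under rapamycin for genes called higher under vehicle, and 0.709 and 0.803 for genes called higher under rapamycin.

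Genes of the TSC and mTORC1 pathway were not called in a single direction: of 38 tested members, 4 were higher and 8 lower (31.6% called, against 20.6% of all genes). The median log2 was -0.066, against -0.00862 over all genes tested, and 0.00314 without replicate 1 of 9mCON+RM. Without both replicate 1 libraries 3 were higher and 5 lower. Sesn3, a sestrin that restrains mTORC1, was at 14.8, 19.9, 17.4, 24.2 and 21.0 CPM in controls and 48.3, 80.2, 74.6, 77.1 and 66.8 CPM in knockouts (log2 1.84 ± 0.21). Deptor, an inhibitor within mTOR complexes, fell by 0.88 ± 0.20 and Mlst8, a shared subunit of both mTOR complexes, by 0.55 ± 0.11 on the log2 scale. The abundant Rps6, whose protein is phosphorylated downstream of mTORC1, did not pass (-0.34 ± 0.15, adjusted p = 0.104). It passed in 1 of 10 leave-one-out fits, its value was -0.20 without replicate 1 of 9mCON+RM, and 84.9% of its 31-base words occur elsewhere in the transcriptome.

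In the list of insulin, IGF and FoxO signalling, 4 of 30 members were higher and 5 lower (30% called, against 20.6% of all genes), with 2 higher without replicate 4 of 9mTSCmKO+RM and 6 without its replicate 1. Akt2, a kinase of the insulin pathway that is abundant in muscle, was at 321 to 417 CPM in controls and 238 to 284 CPM in knockouts (log2 -0.51 ± 0.10), without overlap, and 15.8% of its 31-base words are shared with a pseudogene. Slc2a4, the insulin-responsive glucose transporter GLUT4, fell by 0.64 ± 0.11, and Tbc1d4, a Rab GTPase-activating protein that holds GLUT4 vesicles inside the cell, rose by 1.37 ± 0.27.

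Stress responses were described by 4 lists. The integrated stress response (ISR) slows translation when eIF2 is phosphorylated and raises the factor ATF4, which switches on amino acid synthesis and transport. Of 33 tested ISR and ATF4 target genes, 11 were higher and 4 lower under rapamycin (45.5% called against 20.6% of all genes, median log2 0.445, and 0.262 without replicate 4 of 9mTSCmKO+RM), and 21 were higher and 3 lower under vehicle (72.7%, against 37.9% of all genes, median 0.975). The interaction was called in 8 of them (24.2%, against 4.87% of all genes), each with a smaller or more negative effect under rapamycin. Mthfd2, of mitochondrial one-carbon metabolism, was at 2.77, 2.62, 3.47, 4.13 and 4.93 CPM in 9mCON+RM and 15.5, 16.7, 11.5, 15.1 and 8.78 CPM in 9mTSCmKO+RM. Its log2 fold change was 1.92 ± 0.24 under rapamycin and 3.21 under vehicle (interaction -1.29, adjusted p = 0.0151). Psat1, of serine synthesis, changed by 1.75 ± 0.29 and 3.15 (interaction -1.40, adjusted p = 0.0325). Slc7a5, a large neutral amino acid transporter, rose by 1.65 ± 0.21 and Ddit3, the factor CHOP, by 0.85 ± 0.18, and for these no interaction was called (adjusted p = 0.284 and 0.128). The transcript of Atf4 itself did not pass (-0.14 ± 0.14, adjusted p = 0.553), and its value was -0.017 without replicate 1 of 9mCON+RM. Sars, a seryl-tRNA synthetase, rose by 0.46 ± 0.09, within a list of 20 aminoacyl-tRNA synthetases of which 2 were higher and 1 lower (15%), with 0 lower in all single-library omissions but those of replicate 3 of 9mCON+RM and replicate 1 of 9mTSCmKO+RM, and 1 higher in the latter.

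**Figure D3:**
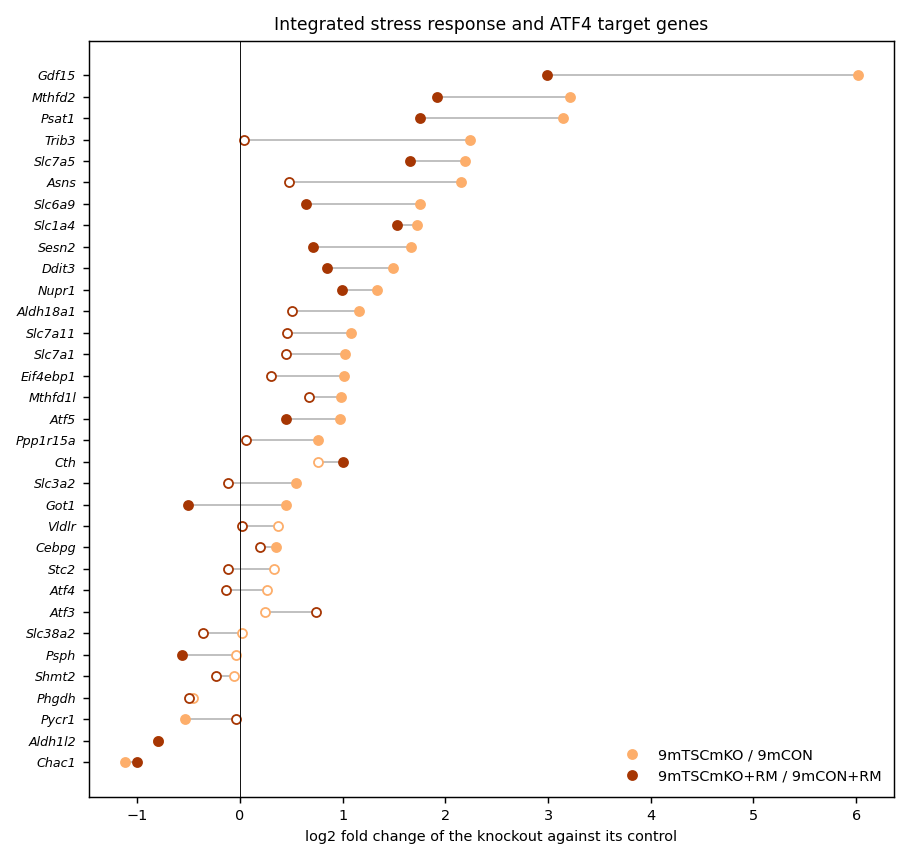
Points give the log2 fold change of knockout against control for the 33 tested ISR and ATF4 target genes under vehicle (light) and under rapamycin (brown), filled where the adjusted p was under 0.05. Under rapamycin 11 filled points lie above 0 and 4 below, and for most members the brown point lies to the left of the light one.

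The sequence motif TGATGNAA, in which N is any base and which resembles the core of the C/EBP-ATF composite element bound by ATF4, was searched on both strands in RefSeq promoter windows (GRCm38.p6, 250 bases before to 50 after the start). It was in the promoters of 10 of the 29 ISR list members that had a window (34.5%), against 2.84% of the 10375 tested genes with one and 3.97% of all 32851 promoters. Of the 10 members with the motif, 2 were higher and 2 lower under rapamycin (median log2 0.249), and of the 19 without it 7 were higher and 1 lower (0.445), beside 11.3% higher and 9.33% lower of all genes. The windows below show the motif in a member that rose and in a member that fell, and a further window for the lysosomal genes described later, with the motif in capitals.
Nupr1, chr7:126625547-126625606, - strand: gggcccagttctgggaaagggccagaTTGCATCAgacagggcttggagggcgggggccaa
Got1, chr19:43524674-43524733, - strand: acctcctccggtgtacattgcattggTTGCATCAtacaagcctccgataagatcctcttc
Ctsd, chr7:142387894-142387951, - strand: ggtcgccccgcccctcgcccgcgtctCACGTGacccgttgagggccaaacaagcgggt
Nupr1, a stress-induced chromatin protein, rose by 0.99 ± 0.25 on the log2 scale (adjusted p = 0.00295). Got1, the cytosolic aspartate aminotransferase, was at 373 to 512 CPM in controls and 267 to 354 CPM in knockouts under rapamycin (-0.51 ± 0.13, adjusted p = 0.00434), whereas it was higher in the knockout under vehicle (0.45, interaction -0.96, adjusted p = 0.00175). In both windows the motif lies on the opposite strand, so the capitals are its reverse complement, and a match describes letters only. These 3 genes were chosen for display after their values were seen.

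Among 24 heat shock and Z-disc stress proteins 9 were higher and 2 lower (1 lower without replicate 1 or 5 of 9mCON+RM or replicate 3 or 4 of 9mTSCmKO+RM; 45.8% called, against 20.6% of all genes, median log2 0.27). Hspb7, a small heat shock protein of muscle, was at 364, 387, 689, 360 and 280 CPM in controls and at 2373, 1892, 2062, 2305 and 2521 CPM in knockouts (2.42 ± 0.26, adjusted p = 7.5e-09). Hspb1 rose by 1.69 ± 0.24, with 52.3% of its 31-base words shared with a pseudogene. Bag3, a co-chaperone of chaperone-assisted autophagy, rose from 154 to 211 CPM to 258 to 348 CPM (0.79 ± 0.12), less than under vehicle (1.43, interaction -0.64, adjusted p = 0.0247). ER chaperones and genes of the unfolded protein response gave 4 higher and 0 lower of 26 (15.4%, below the 20.6% of all genes), and 14 higher and 0 lower under vehicle (53.8%, against 37.9%). Xbp1, its transcription factor, rose by 0.44 ± 0.10. The count was 1 higher without replicate 1 of 9mCON+RM and 2 without replicate 4 of 9mTSCmKO+RM.

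Genes of the pentose phosphate pathway and of NRF2, the factor that answers oxidative stress, gave 5 higher and 2 lower of 29 under rapamycin (24.1%, against 20.6% of all genes; 3 higher without replicate 4 or 5 of 9mCON+RM) and 19 and 3 under vehicle (75.9%, against 37.9%). For 9 of these members the interaction was called (31%, against 4.87% of all genes), in 8 of them with a negative sign. Nqo1, a quinone reductase, was at 9.84 to 13.8 CPM in controls and 14.2 to 21.2 CPM in knockouts (0.60 ± 0.16), against a log2 fold change of 1.61 under vehicle (interaction -1.01, adjusted p = 0.00583). Srxn1, a sulfiredoxin, rose by 1.01 ± 0.22. Fth1, the ferritin heavy chain, was at 3353, 2278, 2078, 2077 and 1999 CPM in controls and 5266, 3314, 2930, 3561 and 3332 CPM in knockouts. Replicate 1 was the highest library of each group for Fth1, so that the groups overlapped, and the change of 0.64 ± 0.17 was 0.48 when replicate 1 of 9mTSCmKO+RM was left out.

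Intermediate filament genes, which encode the cables that link myofibrils, nuclei and membrane, were higher in 7 of 13 members and lower in 0 (53.8% called against 20.6%). Nes, nestin, was at 32.1 to 91.7 CPM in controls and 128 to 278 CPM in knockouts (1.87 ± 0.23), and Lmna, lamin A/C, at 47.0 to 55.5 and 88.7 to 109 CPM (0.91 ± 0.12). Des, desmin, already among the abundant transcripts, rose by 0.42 ± 0.11. Krt8, the usual partner of Krt18, had at most 1 count in each control library, under the floor of 3 counts, and 0.157, 0.864, 1.03, 2.14 and 0.549 CPM in the knockouts, at least 4.58-fold higher. Desmin, by comparison within each library, ranged from 4983 to 9003 CPM (not scaled by length). Of the 31-base words of Krt8, 32.3% are shared with a pseudogene.

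Of 20 slow fiber and developmental sarcomere genes, 11 were higher and 0 lower (55%, against 20.6% of all genes called and 11.3% higher, median log2 1.05), and 15 were higher and 2 lower under vehicle (85%, against 37.9% called, median 1.9). Beside Atp2a2, Myl2 and Actc1, Sln, sarcolipin, an inhibitor of the calcium pump, was at 2.84, 2.37, 2.53, 2.32 and 1.22 CPM in controls and 9.47, 10.3, 5.76, 11.0 and 7.87 CPM in knockouts (1.97 ± 0.30). For Sln the effect under vehicle was 4.02 (interaction -2.05, adjusted p = 0.00362). Myl4, the embryonic and atrial light chain, rose by 1.66 ± 0.25. Leaving out 1 library at a time gave 8 to 13 higher members of this list and 0 lower, and 7 and 0 without both replicate 1 libraries.

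Fast fiber genes gave 0 higher and 5 lower of 15 (33.3% called, against 20.6% of all genes, median log2 -0.33), and 0 and 7 under vehicle (46.7%, against 37.9%). The number lower was 1 without replicate 1 of 9mCON+RM, 2 without its replicate 4 or 5 or without replicate 4 or 5 of 9mTSCmKO+RM, and 3 without replicate 2 of 9mCON+RM, replicate 3 of 9mTSCmKO+RM or both replicate 1 libraries. Casq1, the calcium-binding calsequestrin of fast fibers, was at 3105, 2613, 3042, 3132 and 2600 CPM in controls and 2255, 1753, 1443, 1440 and 1510 CPM in knockouts (-0.79 ± 0.14, adjusted p = 6.24e-05). The fast calcium pump Atp2a1 (-0.43 ± 0.15, adjusted p = 0.032) and the fast myosin-binding protein Mybpc2 (-0.48 ± 0.17, adjusted p = 0.0393) fell less than under vehicle (-1.12 and -1.31, interaction adjusted p = 0.0464 and 0.0339). These calls were close to the threshold, and the call of Atp2a1 was lost in 6 of the 10 fits with 1 library removed and that of Mybpc2 in 8. Pvalb, parvalbumin, fell by 0.67 ± 0.20, and its value was -0.55 (adjusted p = 0.0591) without replicate 1 of 9mCON+RM. Myh4, the fastest myosin heavy chain, ranged from 41239 to 70462 CPM in controls and 42181 to 66889 CPM in knockouts and did not pass (-0.20 ± 0.21, adjusted p = 0.566). Its value ranged from -0.31 to -0.13 over the omissions of single libraries, and 30.4% of its 31-base words occur in other genes, mainly Myh1.

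The summed level of the 10 muscle fiber markers was 155248 to 162805 CPM in 9mCON+RM and 118885 to 151447 CPM in 9mTSCmKO+RM, without overlap. Of the 10 markers 0 were called higher and 2 lower (20%), a share close to the 20.6% of all genes. Because CPM values are shares of each library, and because a bulk sample cannot tell fewer cells of a type from less RNA per cell, these possibilities cannot be told apart, and the part of this shift in other results was not tested.

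Of 29 genes of membrane channels and water transport, 12 were lower and 2 higher (48.3% called, against 20.6% of all genes, of which 9.33% were lower), and 1 or 2 were higher over the omissions of single libraries. Clcn1, the chloride channel that stabilises the resting membrane, was at 246, 240, 208, 258 and 239 CPM in controls and 150, 136, 146, 124 and 129 CPM in knockouts (-0.80 ± 0.10). Kcnj12, an inward rectifier potassium channel, fell by 1.08 ± 0.15, more than under vehicle (-0.38, interaction -0.70, adjusted p = 0.0448), and Scn4b, a sodium channel beta subunit, fell by 0.87 ± 0.12. Against this direction, Kcnn3, the small-conductance calcium-activated potassium channel, was at 3.31 to 6.66 CPM in controls and 11.6 to 21.0 CPM in knockouts (1.76 ± 0.22).

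**Figure D4:**
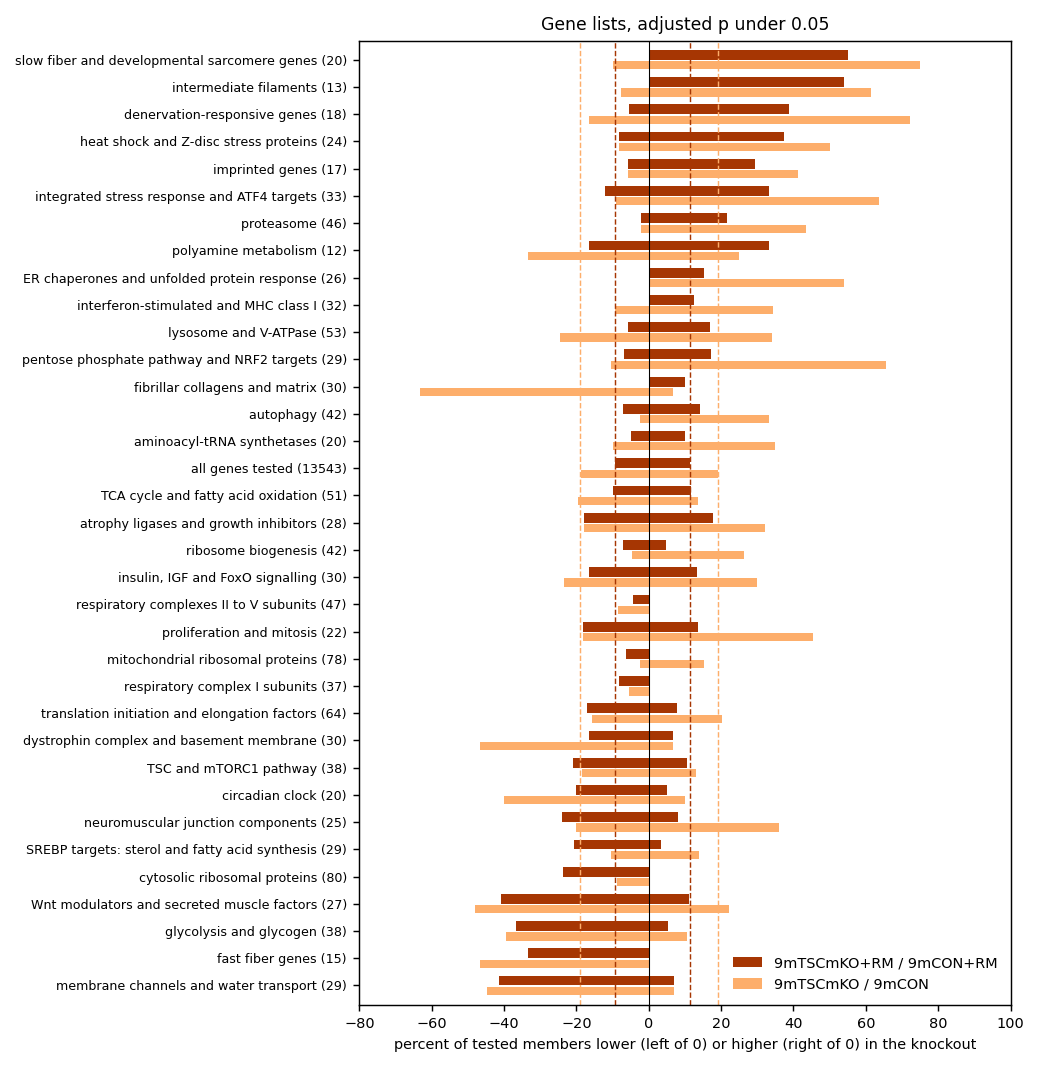
Bars give the percent of tested members (number in parentheses) that were lower, left of 0, or higher, right of 0, in the knockout at an adjusted p under 0.05, under rapamycin (brown) and vehicle (light). Dashed lines mark the shares over all 13543 genes, 11.3% higher and 9.33% lower under rapamycin, and the longest brown bars are slow fiber genes on the right (11 of 20) and membrane channels on the left (12 of 29).

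Denervation-responsive genes are silent or low in innervated fibers and rise when the nerve is lost. Of 18 tested, 7 were higher and 1 lower under rapamycin, and 13 and 3 under vehicle, with 4 negative interactions and 1 positive. The share called was 44.4% under rapamycin, against 20.6% of all genes, and 88.9% under vehicle, against 37.9%, and the interaction was called in 4.87% of all genes. Without both replicate 1 libraries 5 were higher under rapamycin, and without replicate 1 of 9mCON+RM alone 5 were higher and 2 lower. Runx1, a transcription factor induced in denervated muscle, was at 2.30 to 4.59 CPM in controls and 4.93 to 13.3 CPM in knockouts (1.55 ± 0.24). Gadd45a was at 37.6, 26.7, 32.7, 26.5 and 38.5 CPM in controls and 82.2, 59.4, 63.0, 77.9 and 48.2 CPM in knockouts (1.03 ± 0.26), against 2.74 under vehicle (interaction -1.71, adjusted p = 0.00541). Hdac9, a class IIa deacetylase, rose by 1.05 ± 0.25 and Myog, myogenin, by 1.5 ± 0.37. The Myog libraries overlapped between groups, and its change was 1.18 (adjusted p = 0.0206) without replicate 5 of 9mTSCmKO+RM. Fgfbp1, a secreted FGF-binding protein that supports the synapse, was the member that fell (-2.89 ± 0.41), less than under vehicle (-5.64, interaction 2.75, adjusted p = 0.0153).

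Of 25 components of the neuromuscular junction, 2 were higher and 6 lower under rapamycin (32%, against 20.6% of all genes), and 9 and 5 under vehicle (56%, against 37.9%). Without both replicate 1 libraries 0 were higher and 6 lower under rapamycin, and over the omissions of single libraries 1 to 3 were higher and 6 to 7 lower. Colq, the collagen tail that anchors acetylcholinesterase, was at 9.12, 8.23, 14.8, 13.6 and 12.6 CPM in controls and 5.4, 5.93, 6.14, 3.86 and 5.61 CPM in knockouts (-1.10 ± 0.19, adjusted p = 3.7e-05). Under vehicle Colq was higher in the knockout (0.69), and the interaction of -1.80 was called (adjusted p = 0.000138). Rapsn, rapsyn, which clusters acetylcholine receptors, fell by 0.60 ± 0.14, and by 0.45 without replicate 1 of 9mCON+RM. Lrtm1 fell by 0.86 ± 0.22 where under vehicle its value was 0.31 (interaction -1.17, adjusted p = 0.0179).

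Atrophy ligases and growth inhibitors were called in both directions, 5 higher and 5 lower of 28 (35.7%, against 20.6% of all genes). The members with the smallest p were all lower: Smad3, a mediator of TGF-beta and myostatin signals (-1.27 ± 0.19), the ubiquitin ligase genes Trim55 (-0.71 ± 0.11) and Asb2 (-0.99 ± 0.15), and Acvr1b, a receptor of the activin and myostatin pathway. Acvr1b was at 64.0, 70.1, 78.7, 92.4 and 80.9 CPM in controls and 48.4, 41.0, 33.4, 32.7 and 30.5 CPM in knockouts (-1.05 ± 0.17), and did not pass under vehicle (-0.04, interaction -1.02, adjusted p = 0.00744). Mstn, myostatin itself, fell by 0.99 ± 0.21. Fst, follistatin, a secreted inhibitor of myostatin and activin, was at 3.38, 7.25, 7.53, 7.39 and 4.39 CPM in controls and 9.00, 14.7, 18.2, 12.2 and 21.0 CPM in knockouts (1.33 ± 0.27). The ligase Fbxo32, atrogin-1, did not pass (-0.21 ± 0.23, adjusted p = 0.589), and 1 control library (replicate 5, 1207 CPM) lay above the others, at 456 to 639 CPM. Without it the value was 0.09.

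Protein degradation genes were called in either direction at shares close to that of all genes. Of 42 autophagy genes 6 were higher and 3 lower (21.4%, against 20.6% of all genes), of 53 genes of lysosome and V-ATPase 9 and 3 (22.6%), and of 46 proteasome genes 10 and 1 (23.9%). Of all genes 11.3% were higher and 9.33% lower, and the balance of directions in these lists was not tested. Without replicate 2 or 3 of 9mCON+RM the autophagy counts were 4 and 3. Gabarapl1, an ATG8 family member, was at 38.2 to 49.2 CPM in controls and 66.6 to 77.8 CPM in knockouts (0.74 ± 0.12). Sqstm1, the autophagy receptor p62, was at 600 to 646 CPM and 808 to 916 CPM (0.45 ± 0.13), against 1.56 under vehicle (interaction -1.11, adjusted p = 0.000347). The receptor Optn, optineurin, fell by 0.52 ± 0.11. Proteasome genes were higher than 0 in 38 of 46 members with a median log2 of 0.176. Psmd11 (0.67 ± 0.11) and Psmd4 (0.54 ± 0.12), both subunits of the regulatory particle, had the smallest p, and 20.4% of Psmd11's 31-base words occur in other genes. Leaving out 1 library at a time gave 4 to 12 higher members, with 4 without replicate 3 of 9mCON+RM and 5 without its replicate 4 or replicate 1 of 9mTSCmKO+RM.

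Lysosomal hydrolases were among the members with the smallest p. Hexa, a hexosaminidase subunit, was at 77.3, 69.5, 46.8, 50.5 and 51.9 CPM in controls and 132, 112, 90.9, 112 and 111 CPM in knockouts (0.92 ± 0.12, adjusted p = 1.3e-07). Gusb, beta-glucuronidase, rose by 0.89 ± 0.14, and Atp6v0e, a subunit of the proton pump, by 0.83 ± 0.14. Gpnmb, a lysosomal membrane glycoprotein also found in macrophages, was at 1.08 to 2.17 CPM and 7.09 to 11.9 CPM (2.37 ± 0.34). Ctsd, cathepsin D, rose by 0.48 ± 0.12 and shares 36.6% of its 31-base words with another gene model, and Lamp1, the abundant lysosomal membrane protein, did not pass (0.06 ± 0.11, adjusted p = 0.768). The value of Lamp1 ranged from -0.017 to 0.164 over the omissions of single libraries. The E-box CACGTG, the core of the element bound by TFEB and TFE3, read the same on both strands, was in the promoter windows of 16 of the 42 list members that had one (38.1%), against 11.6% of tested genes. Among the 16 with it 2 were higher and 1 lower (median log2 0.011), and among the 26 without it 6 and 1 (0.099), both near the 20.6% of all genes called. Ctsd, printed above with the E-box in capitals, was a member with the motif that rose.

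Each cytosolic ribosomal protein gene that was called was lower. Of 80 tested, 0 were higher and 19 lower (23.8%, against 20.6% of all genes called in either direction and 9.33% called lower). A positive log2 value was found in 1 of the 80. The median was -0.334. Under vehicle 7 were lower (8.75%, against 37.9% of all genes called and 18.9% called lower, median -0.0913). Their summed level was 27770, 21960, 17910, 17520 and 17180 CPM in controls and 21480, 14040, 11780, 15930 and 16530 CPM in knockouts, so that the groups overlapped and replicate 1 was the highest library of both. The number of lower members was 3 without replicate 1 of 9mCON+RM, 6 without replicate 3 and 9 without replicate 2 of 9mTSCmKO+RM, 37 without replicate 1 of 9mTSCmKO+RM, and 17 with both replicate 1 libraries left out. No interaction was called for these genes. Rps4x, at 250 to 427 and 171 to 248 CPM (-0.70 ± 0.12), and Rpl4 (-0.57 ± 0.15) are examples. Rps4x shares 78.4% and Rpl4 32.2% of their 31-base words with other genes, and the value of Rpl4 was -0.41 without replicate 1 of 9mCON+RM. Of 64 initiation and elongation factors 5 were higher and 11 lower, a share of 25% that is near the background of 20.6%: Eef2, the elongation factor that moves the ribosome along, fell by 0.60 ± 0.11 and Eif4b by 0.42 ± 0.11, and Eif3b rose by 0.51 ± 0.10. Of Eef2's 31-base words 23.2% occur in other genes. Transcripts of ribosomal proteins, Eef2 and Eif4b carry a terminal oligopyrimidine sequence, and their translation is under mTORC1 control. The number of lower factors was 5 without replicate 3, 6 without replicate 5 and 7 without replicate 2 of 9mTSCmKO+RM, 6 without replicate 1 of 9mCON+RM and 7, with 3 higher, without both replicate 1 libraries.

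Of 38 glycolysis and glycogen genes 2 were higher and 14 lower (42.1% called, against 20.6% of all genes, median log2 -0.252), with 4 and 15 under vehicle (50%, against 37.9%). The number higher was 1 without replicate 4 of 9mCON+RM or replicate 5 of 9mTSCmKO+RM. Fbp2, muscle fructose-bisphosphatase, was at 58.5, 84.1, 26.3, 32.3 and 44.1 CPM in controls and 11.5, 10.4, 9.79, 10.6 and 8.17 CPM in knockouts (-2.28 ± 0.29). Slc2a3, the glucose transporter GLUT3, was at 11.5 to 15.6 CPM and 4.94 to 6.42 CPM (-1.34 ± 0.19), and Pgm2, a phosphoglucomutase, fell by 0.99 ± 0.14. Subunits of respiratory complex I gave 0 higher and 3 lower of 37 (8.11%), those of complexes II to V 0 and 2 of 47 (4.26%) and mitochondrial ribosomal proteins 0 and 5 of 78 (6.41%), all below the 20.6% of all genes. These counts ranged from 1 to 7, from 1 to 8 and from 2 to 9 lower when single libraries were removed, each highest without replicate 1 of 9mTSCmKO+RM. Ndufs8, of complex I, fell by 0.50 ± 0.14, and by 0.41 without replicate 1 of 9mCON+RM. In the TCA cycle and fatty acid oxidation 6 were higher and 5 lower of 51 (2 lower without replicate 3 or replicate 4 of 9mTSCmKO+RM, 3 without replicate 5 of 9mTSCmKO+RM or replicate 2 or 4 of 9mCON+RM, and 8 without replicate 1 of 9mTSCmKO+RM). Idh2, the NADP-dependent mitochondrial isocitrate dehydrogenase, rose from 130 to 167 CPM to 276 to 401 CPM (1.05 ± 0.17), and Idh3a, of the NAD-dependent enzyme, fell by 0.59 ± 0.12. Acads, of short-chain fatty acid oxidation, rose by 0.71 ± 0.16. Ucp2, a mitochondrial carrier, rose by 1.51 ± 0.28 and did not pass under vehicle (0.23, interaction 1.28, adjusted p = 0.0472).

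SREBP targets, the genes of sterol and fatty acid synthesis that mTORC1 can promote, gave 1 higher and 6 lower of 29 (24.1%, near the 20.6% of all genes). Srebf1, which encodes SREBP1, was at 86.9, 78.5, 91.3, 90.2 and 99.8 CPM in controls and 44.6, 42.4, 43.8, 35.9 and 36.3 CPM in knockouts (-1.14 ± 0.15). Hsd17b7 fell by 1.21 ± 0.21, whereas Cyp51, lanosterol demethylase, rose by 1.06 ± 0.14. In polyamine metabolism 4 of 12 were higher and 2 lower (50%). Smox, spermine oxidase, was at 120 to 222 CPM and 49.9 to 85.3 CPM (-1.42 ± 0.22), and Amd1, which makes decarboxylated S-adenosylmethionine, at 337 to 656 and 136 to 225 CPM (-1.68 ± 0.27). Amd1 shares 90.6% of its 31-base words with other genes, mainly Amd2, so its reads cannot be assigned to it alone. Azin1, an inhibitor of antizyme, rose by 0.89 ± 0.16.

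Of 30 fibrillar collagen and matrix genes, 3 were higher and 0 lower under rapamycin (10%, against 20.6% of all genes, median log2 0.0833). Under vehicle 2 were higher and 19 lower (70%, against 37.9%, median -1.11), and the interaction was called in 3 (10%, against 4.87%), each positive. The number higher was 1 without replicate 5 of 9mCON+RM or replicate 3 of 9mTSCmKO+RM, with a negative median in both cases (-0.109 and -0.0741). Over all omissions of single libraries 1 to 4 were higher and the median ran from -0.109 to 0.28. Lox, lysyl oxidase, was at 3.31 to 11.4 CPM and 12.1 to 18.6 CPM (1.09 ± 0.31), with an adjusted p of 0.0591 when both replicate 1 libraries were left out. Dcn (0.15 ± 0.27) and Sparc (-0.35 ± 0.20) did not pass. The value of Dcn ranged from -0.08 to 0.31 over the omissions of single libraries, and that of Sparc was -0.23 without replicate 3 of 9mCON+RM. The summed matrix level was 462.9 to 1529 CPM in 9mCON+RM, 862 to 1404 CPM in 9mTSCmKO+RM, 1969 to 3672 CPM in 9mCON and 766 to 2096 CPM in 9mTSCmKO. The 8 markers of fibro-adipogenic progenitors, the cells that make much of the muscle matrix, include Dcn. Dcn is also in the matrix list, so the sums of both lists are not independent. The sum of the 8 markers was 172 to 617.6 and 386.9 to 731.3 CPM in the rapamycin groups and 784.2 to 1236 and 319.3 to 738.7 CPM in the vehicle groups. The part of these cells in the matrix result was not tested.

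Macrophage markers were positive in 14 of 15, and 4 passed as higher and 0 as lower (26.7%, against 20.6% of all genes, median log2 0.784), with 2 higher without replicate 2 or 5 of 9mCON+RM or without replicate 5 of 9mTSCmKO+RM. H2-Ab1, an MHC class II chain, was at 7.97, 4.47, 9.19, 6.53 and 1.75 CPM in controls and 14.6, 11.8, 12.9, 12.8 and 14.7 CPM in knockouts (1.17 ± 0.33). The markers' sum was 68.77 to 151.5 CPM in 9mCON+RM and 140.4 to 175.7 CPM in 9mTSCmKO+RM and overlapped. It was 138.9 to 339.8 CPM in 9mCON and 136 to 306.7 CPM in 9mTSCmKO. Under vehicle 1 macrophage marker was higher and 1 lower (13.3%, against 37.9% of all genes, median log2 -0.0893), and the interaction was called in 0. Interferon-stimulated and MHC class I genes gave 4 higher and 0 lower of 32 (12.5%, against 20.6% of all genes). Of the endothelial markers 0 were higher and 3 lower of 11 (27.3%), with 0 lower without replicate 3 of 9mCON+RM, without replicate 2 or 4 of 9mTSCmKO+RM, without both replicate 1 libraries and under upper-quartile scaling, and 1 lower without replicate 1 or 5 of 9mCON+RM or replicate 1 of 9mTSCmKO+RM. With all libraries and TMM scaling without a block, no marker of satellite cells, smooth muscle, fibro-adipogenic progenitors, tendon, Schwann cells, erythroid cells or of lymphocytes and neutrophils passed. Of the 9 listed markers of lymphocytes and neutrophils 3 were tested, including Ptprc, which is also in the macrophage list. Under upper-quartile scaling 1 marker of fibro-adipogenic progenitors was higher, and with the replicate block 1 of lymphocytes and neutrophils. Omissions of single libraries gave at most 2 Schwann cell markers lower, 1 tendon marker and 1 lymphocyte or neutrophil marker higher, and 1 fibro-adipogenic progenitor marker higher or lower. The 9 adipocyte markers had a median log2 of -0.263 and 1 positive member (-1.19 with 2 lower without replicate 4 of 9mTSCmKO+RM, and 0.179 without replicate 3 of 9mCON+RM). That member, the single one called with all libraries (11.1%), was Car3, carbonic anhydrase 3, which slow fibers also express, at 576 to 1199 CPM in controls and 1723 to 2433 CPM in knockouts (1.34 ± 0.39).

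Among the remaining lists, to be read against the 20.6% of all genes called, imprinted genes gave 5 higher and 1 lower of 17 (35.3%). The number higher was 2 without replicate 1 of 9mCON+RM or replicate 2 of 9mTSCmKO+RM, and 3 with the omission of any other single library except replicates 1 (6) and 5 (5) of 9mTSCmKO+RM. H19, an imprinted non-coding RNA, was at 266 to 370 CPM in controls and 606 to 1076 CPM in knockouts (1.34 ± 0.20). Proliferation genes were called in both directions (3 higher, 4 lower of 22, 31.8%, and 5 higher without replicate 1 of 9mTSCmKO+RM): Aurka, aurora kinase A, fell by 1.41 ± 0.19, and Ccne1, cyclin E1, rose by 2.19 ± 0.33 from at most 0.54 CPM. Of 20 clock genes 1 was higher, Cry2 (0.69 ± 0.15), and 4 were lower (25%). Genes of the dystrophin complex and basement membrane gave 2 higher and 5 lower of 30 (23.3%), with 2 and 14 under vehicle (53.3%, against 37.9%), and 1 to 4 were higher under rapamycin over the omissions of single libraries, with 4 without replicate 1 of 9mTSCmKO+RM and 1 without its replicate 3 or without replicate 1 or 4 of 9mCON+RM. Wnt modulators and secreted muscle factors gave 3 higher and 11 lower of 27 (51.9%), among them Dkk3, Cntfr and Ostn above, and ribosome biogenesis genes 2 and 3 of 42 (11.9%). Of the last list 1 to 4 were higher over the omissions of single libraries, with 4 without replicate 2 of 9mCON+RM or replicate 1 of 9mTSCmKO+RM.

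Among the genes with the largest interactions of the reduced class, some knockout levels under rapamycin lay within the control range and others above it. Map7d2, a microtubule-associated protein, was at 48.8, 28.7, 50.1, 36.5 and 23.5 CPM in 9mTSCmKO, and at 4.22, 2.54, 1.96, 5.93 and 1.52 CPM in 9mTSCmKO+RM. Controls were at 0.411 to 1.24 CPM with either injection, and Map7d2 was still higher in the knockout under rapamycin (2.14 ± 0.36, interaction -3.44, adjusted p = 0.000152). Uchl1, a neuronal ubiquitin hydrolase, was at 73.5 to 279 CPM in 9mTSCmKO and 9.03 to 29.5 CPM in 9mTSCmKO+RM, against 1.55 to 2.68 CPM in 9mCON+RM (2.75 ± 0.36, interaction -2.99). Adh7, an alcohol and retinol dehydrogenase, was at 10.8 to 53.4 CPM in 9mTSCmKO and at 0.313 to 0.758 CPM in 9mTSCmKO+RM, within the 0.258 to 1.22 CPM of 9mCON+RM (0.11 ± 0.61, interaction -5.06, adjusted p = 0.000219). The 1.22 CPM was replicate 1 of 9mCON+RM. Over the omissions of single libraries the log2 value of Adh7 under rapamycin ranged from -0.046 to 0.75. Adamts8, a secreted protease, did not pass under rapamycin (-0.46 ± 0.35) and did under vehicle (2.75, interaction -3.21). In the other direction Cish (0.97 ± 0.62, vehicle -2.91), Nr4a2 (0.58 ± 0.52, vehicle -2.63) and Mybph (1.26 ± 0.60, vehicle -1.88) did not pass under rapamycin. The interaction was called in each of them (3.88, 3.21 and 3.14), and for Nr4a2 1 library of 9mCON, at 49.6 CPM beside 2.53 to 10.6 CPM, carried a large part of the control mean. The value of Nr4a2 under rapamycin was 0.37 without replicate 1 of 9mTSCmKO+RM.

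Where the effect was larger under rapamycin, the group apart from the other 3 was the knockout for some genes and the control for others. Tfrc was at 105, 176, 233, 220 and 246 CPM in 9mCON, 126, 213, 158, 197 and 195 CPM in 9mTSCmKO, 130, 114, 132, 207 and 227 CPM in 9mCON+RM and 21.7, 39.5, 28.2, 34.0 and 25.3 CPM in 9mTSCmKO+RM. Only the rapamycin-treated knockouts were low, and the interaction was -2.30 (adjusted p = 0.000138), while Tfrc did not pass under vehicle (-0.14, adjusted p = 0.663). Rcan1, a calcineurin regulator, was at 233, 323, 357, 331 and 381 CPM in 9mTSCmKO+RM and at 37.0 to 124 CPM in the other 3 groups (interaction 1.29, adjusted p = 0.0213). Actc1 was at 87.8 to 262 CPM in 9mCON and 179 to 540 CPM in 9mTSCmKO, and at 16.1 to 39.9 CPM in 9mCON+RM and 103 to 340 CPM in 9mTSCmKO+RM. Its low group was thus the rapamycin-treated control (interaction 2.35, adjusted p = 0.0413). Tmem100 was highest in 9mCON+RM, at 47.8 to 55.0 CPM beside 24.7 to 34.5 CPM in 9mCON, and at 6.95 to 15.1 CPM in both knockout groups (interaction -0.97, adjusted p = 0.0247). In the contrasts of rapamycin against vehicle, which share libraries with those above, 2135 genes were higher (15.8%) and 2275 lower (16.8%) in knockouts, and 681 (5.03%) and 923 (6.82%) in controls. Tfrc changed by -2.58 ± 0.25 in knockouts and -0.28 ± 0.23 in controls, Rcan1 by 1.69 ± 0.25 and 0.40 ± 0.24, Actc1 by -0.58 ± 0.48 and -2.93 ± 0.52, and Tmem100 by -0.25 ± 0.19 and 0.72 ± 0.18. Serpina3c (interaction 2.30) and the transcription factor Cux2 (-1.11, with -2.37 ± 0.22 under rapamycin) belonged to the same class.

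**Figure D5:**
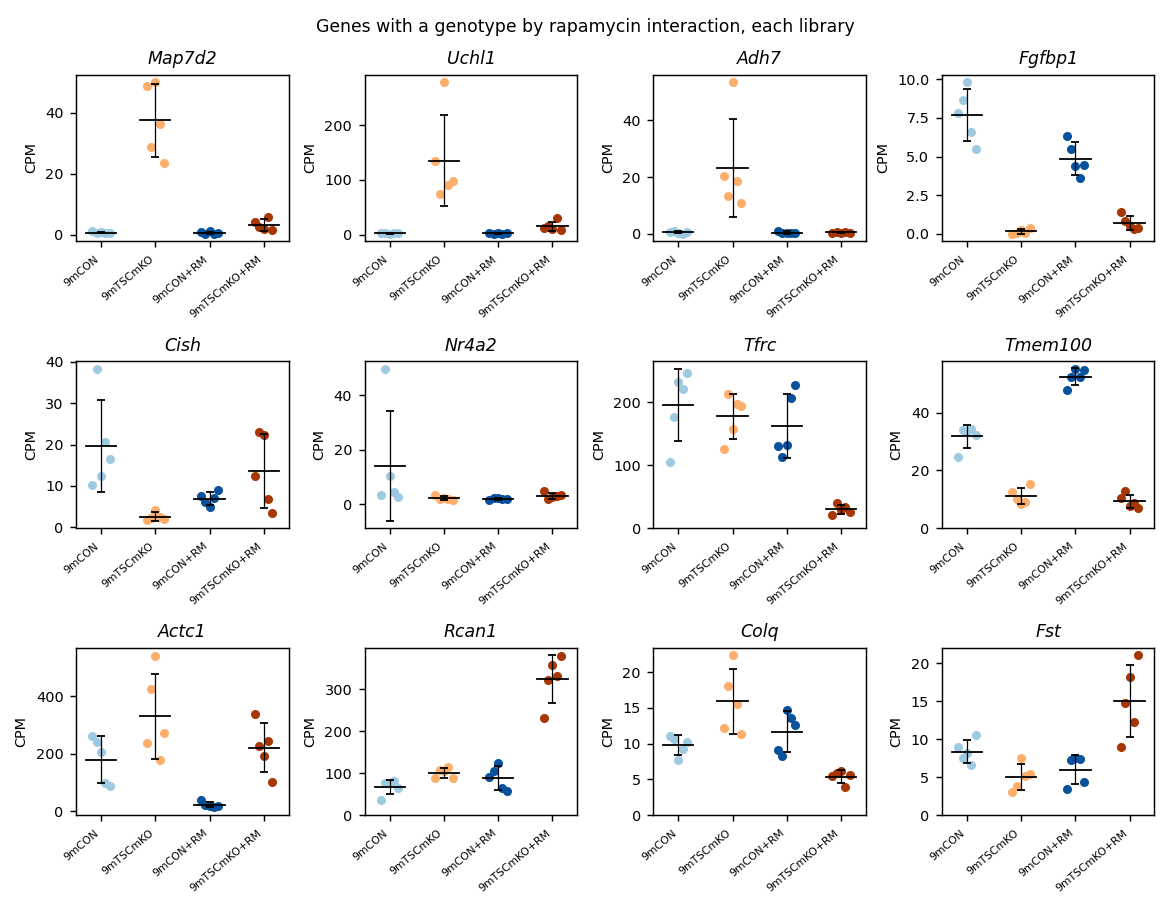
Points are the CPM of single libraries in the 4 groups of 9-month mice for 12 genes with a genotype by rapamycin interaction, with black lines for the mean and bars for 1 SD over 5 libraries. Map7d2, Uchl1 and Adh7 are highest in 9mTSCmKO, Tfrc is low in 9mTSCmKO+RM alone (21.7 to 39.5 CPM), and Actc1 is low in 9mCON+RM alone (16.1 to 39.9 CPM).

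The 27 genes called with opposite signs included Colq and Fst, described above. Fst was lower in the knockout under vehicle (-0.75) and higher under rapamycin (1.33, interaction 2.08, adjusted p = 0.00116). Lrrc74b changed in the same way (-0.87 under vehicle, 0.94 ± 0.22 under rapamycin). Ezh2, a histone methyltransferase of Polycomb, was higher under vehicle (0.38) and lower under rapamycin (-0.53 ± 0.15, interaction -0.91, adjusted p = 0.00757).

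At 3 months, the comparison of 3mTSCmKO+RM with 3mCON+RM, again on other libraries, gave 1359 changed genes (10%), 768 higher (5.67%) and 591 lower (4.36%). The spread was smaller at that age (a biological coefficient of variation of 13.6% in 3mCON+RM and 14.4% in 3mTSCmKO+RM), and in fits of only the groups compared 2563 genes changed at 3 months and 2223 at 9 months, so that the order of the ages depends on the fit. Of the 9-month rapamycin genes, 575 higher ones were higher at 3 months too (37.6% of the 9-month list and 74.9% of the 3-month list) and 457 lower ones were lower (36.2% and 77.3%). No gene was called with opposite signs, and Pearson's r between the effects across genes was 0.724. The effect differed between the ages in 30 genes (0.222%), 22 with a positive (0.162%) and 8 with a negative difference (0.0591%), and in 85 by DESeq2, 47 with only the groups compared and 16 without replicate 4 of 9mTSCmKO+RM. Tfrc changed by -2.36 at 3 months, Aqp4 by -3.64 and Dkk3 by -3.51, and for these no age difference was called. Zfp365, a zinc finger protein, rose by 3.05 ± 0.25 at 9 months and had a value of 0.68 at 3 months (difference 2.37). Gpnmb rose by 2.37 at 9 months against a value of -0.08 at 3 months (difference 2.45). Fam174b (difference -2.09), Adamts8 (-2.82), Srebf1 (-1.21) and Tmem100 (-1.14) were the members named above that differed in the negative direction.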

How the data were processed

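Whole EDL muscle RNA was sequenced as polyA libraries. The authors trimmed reads with cutadapt 1.9.1, pseudoaligned them with kallisto 0.43.1 to transcripts of GRCm38 (Ensembl 92; protein-coding ones, per the study's methods), split each read equally among the transcripts it mapped to, and deposited estimated counts per gene, given as whole numbers, and a TPM table, which was not tested. Counts were used as deposited. Of 22844 genes, 13543 with at least 1 CPM in at least 5 libraries were tested, and 21.1% of the genes in the table are not listed as protein coding in the reference annotation. A joint fit of 8 group means over 40 libraries was made with edgeR 4.0.16 (R 4.3.3; TMM scaling, robust quasi-likelihood F-test), with Benjamini-Hochberg adjustment over all genes in each contrast and a threshold of 0.05. Interaction and age differences were contrasts of the same fit. Depth is given as counts per library, and no 2 libraries were duplicates. The labels do not say more about replicates than their numbers, so p-values cover the spread between these samples.

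The members and gene lists were chosen with earlier results of these data known. Genes named were Tsc1, the 10 largest rises and falls (threshold passed, at least 5 CPM in the higher group, no overlap), up to 4 called members of each list by p and 2 abundant members not called, and the leading genes of the interaction classes and the age difference. Some that the rule names are not reported here, and Nupr1, Got1, Des, Scn4b, Myog, Gadd45a, Mstn, Sqstm1 and Ctsd were added after their values were seen. Shared sequence is the percent of 31-base words of a gene's transcripts found in other genes. The tests were checked on simulated counts. Alternatives were RLE and upper-quartile scaling, no filter or one of 10 CPM, DESeq2 1.42.0, insert size as a term, a replicate block, fits of the groups compared only, leaving out each library and, chosen after seeing the data, leaving out both replicate 1 libraries.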

Additional observations from a re-analysis of the deposited data

Results flagged for a closer look

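In 248 groups of 5 libraries, for 124 genes, 27 (10.9%) held a library far from the other 4 by Dixon's test, which chance does in about 1 of 20 groups. In 9mCON+RM, replicate 1 was high for Actc1 (39.9 CPM), Cntfr (264 CPM), Atf4 (280 CPM), Fth1 (3353 CPM), Des (7263 CPM), Rpl4 (2087 CPM) and Adh7 (1.22 CPM), and it was the library with a count of Krt8 (0.0675 CPM). In 9mTSCmKO+RM, replicate 1 stood apart for Glb1l2 (2.11 CPM), Fth1 (5266 CPM), Des (9003 CPM), Kcnn3 (11.6 CPM), Rapsn (31.5 CPM), Ctsd (974 CPM), Rpl4 (1414 CPM) and Idh2 (401 CPM). The other libraries of 9mCON+RM were replicate 3 for Mdfi (0.145 CPM), Hspb7 (689 CPM) and Cux2 (12.5 CPM), replicate 4 for Fam174b (11.6 CPM), and replicate 5 for Scn4b (783 CPM), Fbxo32 (1207 CPM) and Sqstm1 (600 CPM). Those of 9mTSCmKO+RM were replicate 3 for Tsc1 (25.7 CPM) and Atp6v0e (13.3 CPM), and replicate 4 for Srxn1 (76.9 CPM) and Uchl1 (29.5 CPM).

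The genotype effect differed between rapamycin and vehicle, by the interaction test in log2 units, with a negative sign for Adh7 (-5.06), Map7d2 (-3.44), Adamts8 (-3.21), Uchl1 (-2.99), Tfrc (-2.30), Sln (-2.05), Colq (-1.80), Gadd45a (-1.71), Psat1 (-1.40), Mthfd2 (-1.29), Lrtm1 (-1.17), Sqstm1 (-1.11), Cux2 (-1.11), Acvr1b (-1.02), Nqo1 (-1.01), Tmem100 (-0.97), Got1 (-0.96), Ezh2 (-0.91), Kcnj12 (-0.70) and Bag3 (-0.64). The sign was positive for Cish (3.88), Nr4a2 (3.21), Mybph (3.14), Fgfbp1 (2.75), Actc1 (2.35), Serpina3c (2.30), Fst (2.08), Lrrc74b (1.81), Dkk3 (1.68), Rcan1 (1.29), Ucp2 (1.28), Mybpc2 (0.84) and Atp2a1 (0.69). Between 9 and 3 months under rapamycin the effect differed for Gpnmb (2.45), Zfp365 (2.37), Adamts8 (-2.82), Fam174b (-2.09), Srebf1 (-1.21) and Tmem100 (-1.14).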

How the results depend on the processing

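The number of genes changed between 9mTSCmKO+RM and 9mCON+RM (2795) lay between 2086 (a filter of 10 CPM) and 2976 (DESeq2) over the alternatives that kept all 10 libraries, and between 2269 and 2902 when 1 library was left out. The filter of 10 CPM left 8708 genes to test and no filter 22597, against 13543, so counts under these filters are of other sets of genes. The interaction count (660) was 435 with no filter on low counts, 929 by DESeq2 and 201 when only the groups compared were fitted, and 467 to 846 over the leave-outs. With only the groups compared, 2710 genes changed under vehicle (5133 in the joint fit, 4504 to 5256 over the leave-outs), 2563 at 3 months (1359; 997 to 1217), 47 differed between the ages (30) and 1207 changed in the same direction with and without rapamycin (1861; 1581 to 1845). The age difference was called in 85 genes by DESeq2 and in 16 to 46 over the leave-outs, with 16 without replicate 4 and 46 without replicate 1 of 9mTSCmKO+RM, 17 without replicate 5 of 9mCON+RM and 18 without replicate 2 of 3mTSCmKO+RM. The causes were not tested. For single genes the alternatives were run for the comparison of 9mTSCmKO+RM with 9mCON+RM, not for interactions or age differences. Of the 124 genes, none changed sign of a called effect in it. Under alternatives other than the leave-outs, the calls lost were those of Chac1, Mybpc2, Atp2a1 and Lox, and that of Mybph was gained (1.26, adjusted p = 0.0195) with only the groups compared.

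With the replicate number as a block, 2814 genes changed under rapamycin, 658 passed the interaction, 5082 changed under vehicle, 1355 at 3 months, 30 differed between the ages and 1876 changed in the same direction, and no call of the 124 genes between 9mTSCmKO+RM and 9mCON+RM changed. The numbers were not taken to pair the samples: same-numbered libraries of 9mTSCmKO+RM and 9mCON+RM deviated from their group means with r of 0.412, 0.14, 0.247, -0.0122 and -0.147, and 2 of 5 correlated best with their own number.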

Other observations

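Because Tfrc, which brings transferrin-bound iron into cells, was lower in the rapamycin-treated knockouts of both ages (-2.44 at 9 and -2.36 at 3 months) and did not pass under vehicle at 9 months (-0.14), other genes of iron handling were read after its values were seen. The ferritin chains were higher in the knockout under rapamycin, Fth1 from 2357 ± 566 to 3681 ± 915 CPM and Ftl1 from 102 ± 37.0 to 150 ± 19.7 CPM (SD, n = 5 each), with log2 fold changes of 0.64 and 0.56. Under vehicle, where Tfrc did not pass, they were higher too (1.16 and 0.65). At 3 months under rapamycin, where Tfrc was lower, they did not pass (0.41, adjusted p = 0.134, and 0.37, adjusted p = 0.221, in edgeR's test). Slc11a2, an importer of ferrous iron, was lower (-0.53, from 28.7 ± 5.4 to 19.9 ± 2.8 CPM, and -0.29 under vehicle), as was Slc25a37, a mitochondrial iron carrier (-0.45, and -0.68 under vehicle). Slc40a1, the iron exporter ferroportin, did not pass under rapamycin (0.27) and was higher under vehicle (1.45, interaction -1.18). Ireb2 (-0.21) and Aco1 (0.18), which encode the iron regulatory proteins, did not pass in edgeR's test. At 3 months under rapamycin Slc11a2 was lower (-0.43) and Aco1 higher (0.40), and Slc25a37 (-0.08), Slc40a1 (-0.14) and Ireb2 (-0.07) did not pass.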
